A study of Mus musculus with 24 samples.

Results

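The endothelial fatty acid uptake genes were followed here as a set of 10 genes, Lpl, Gpihbp1, Cd36, Slc27a1, Slc27a3, Slc27a4, Fabp3, Fabp4, Fabp5 and Meox2, out of 18540 gene symbols on the array. They were chosen by name, and their probes were found by transcript accession, which gave 15 of 41174 probes. For each gene the brightest probe in a tissue was read. All 10 of these probes were well above background on all 24 arrays.

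Endothelial cells stand between the fatty acids carried in blood and the muscle or fat that burns or stores them. Lipoprotein lipase (Lpl) is made mainly by muscle fibres and adipocytes, is carried across the capillary wall by the endothelial protein Gpihbp1, and frees fatty acids from triglyceride-rich lipoproteins on the vessel's inner face. The released fatty acids enter the cell with the help of the scavenger receptor Cd36 and the transport proteins of the Slc27a family, which also join them to coenzyme A. Inside the cell they are held by the binding proteins Fabp3, Fabp4 and Fabp5. Meox2 is a homeobox transcription factor which, with Tcf15, drives Cd36 and Fabp4 in the capillary endothelium of heart and skeletal muscle.

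Male wild-type C57BL/6 mice (WT) and Lgals3-/- mice (KO), which carry a germline deletion of the galectin-3 gene in all tissues, ate a high-fat diet with 60% of its calories from fat (HFD) or chow with 12% for 8 weeks, from 8 weeks of age. The groups were WT chow, WT HFD, KO chow and KO HFD, each in aorta and in leg skeletal muscle, with 3 arrays per group from 3 separate experiments. Each array carried RNA of live CD105+/CD45- cells sorted from the pooled tissue of 3 mice, or of 3 to 4 according to the deposited design. The aorta and muscle cells of a strain, diet and experiment came from the same mice, and the chow arrays of a strain are used both in its diet comparison and in the strain comparison on chow.

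Levels are log2 signals relative to each array's own 75th percentile, so that 0 is that percentile and 1 unit is a doubling. The share of spots well above background was 59.5% to 75.7% per array. The 3 arrays of a group came from separately treated mice, so p-values measure the spread between such pools. The 4 arrays of a tissue and experiment shared a slide, and experiment 1 was scanned in a session of its own, so experiment, slide and scan cannot be told apart. No slide held both tissues, so every difference between aorta and muscle is also a difference between slides. The probe for Lgals3 was higher in KO than in WT in 11 of 12 pairs of arrays of the same tissue, diet and experiment, and whether it lies in the deleted exons was not determined here. On 19 probes that separated the strains on the chow arrays by at least 2 log2 units, a scale of 0 for the WT and 1 for the KO chow mean put the HFD arrays of experiments 2 and 3 at −0.08 to 0.12 for WT and 0.86 to 0.975 for KO. In experiment 1 the HFD arrays fell in between, at 0.25 and 0.50 where the label was WT and at 0.51 and 0.66 where it was KO. The strain of these 4 arrays is therefore in doubt, WT and KO below name what the labels say, and the main fitted differences are given also without experiment 1.

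The sort was checked against marker lists. All 14 endothelial markers were well above background on every array of both tissues, led by Egfl7 and Cldn5. Their summed signal was 162 to 584 times the 75th percentile in aorta and 583 to 888 times in muscle, and all 14 were lower in aorta, with a median difference of −1.06 log2 units. Fibroblast markers, led by Dcn and Col1a2, were bright in aorta, where their summed signal was 312 to 686, against 24 to 225 in muscle. Adipocyte markers, led by Cfd and Cidec in aorta, summed to 109 to 406 on the aortic chow arrays and to 12.9 to 30.1 on the aortic HFD arrays, so the diets did not overlap. Of the 14 adipocyte markers with a probe, 12 were well above background on every aortic array, and 1, Lep, was above background on none. Brown adipocyte markers, led by Cidea and Ucp1 in aorta, summed to 122 on the KO chow aortic array of experiment 1. On the other aortic arrays they summed to 13.0 to 40.4 and in muscle to 1.5 to 9.1. Of these markers, 4 of the 7 were called higher in aorta, against 16% of all probes. Elovl3, a member of that list, was above background on no muscle array. Skeletal muscle fibre markers, led by Tnnc2 and Tnni2, summed to 32.8 to 262 in muscle and stayed below that range on every aortic array. White and brown adipocytes carry Lpl, Cd36 and Fabp4, and muscle fibres carry Lpl, Cd36, Slc27a1 and Fabp3, so the levels below are those of the sorted cell mixture. In such mixtures fewer cells of a type and less RNA per cell cannot be told apart.

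The windows from 250 bases before to 50 bases after the transcription start were available from RefSeq (GRCm38.p6) for 6 of the 10 genes. Those of Cd36, Fabp3 and Meox2 are shown, the receptor and the binding protein that the results below turn on and the factor placed upstream of Cd36. They were searched on both strands for AGGTCA, the core of nuclear receptor sites such as those of the PPARs, TAATTA, a homeobox core, GTAAACA, a forkhead core, and TATAAA, and matches are in capitals.
Cd36 (chr5:17835847-17836146, minus strand): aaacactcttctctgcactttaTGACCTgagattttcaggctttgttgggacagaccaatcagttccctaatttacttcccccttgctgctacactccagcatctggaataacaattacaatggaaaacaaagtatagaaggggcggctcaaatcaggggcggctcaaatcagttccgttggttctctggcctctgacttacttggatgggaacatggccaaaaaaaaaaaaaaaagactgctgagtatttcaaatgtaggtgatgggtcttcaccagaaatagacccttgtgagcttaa
Fabp3 (chr4:130308488-130308787, plus strand): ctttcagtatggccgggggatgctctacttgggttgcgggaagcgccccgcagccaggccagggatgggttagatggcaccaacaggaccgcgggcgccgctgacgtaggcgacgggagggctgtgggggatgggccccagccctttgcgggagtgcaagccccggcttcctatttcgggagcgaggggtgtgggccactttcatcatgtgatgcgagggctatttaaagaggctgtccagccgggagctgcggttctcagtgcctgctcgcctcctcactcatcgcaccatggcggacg
Meox2 (chr12:37108290-37108589, plus strand): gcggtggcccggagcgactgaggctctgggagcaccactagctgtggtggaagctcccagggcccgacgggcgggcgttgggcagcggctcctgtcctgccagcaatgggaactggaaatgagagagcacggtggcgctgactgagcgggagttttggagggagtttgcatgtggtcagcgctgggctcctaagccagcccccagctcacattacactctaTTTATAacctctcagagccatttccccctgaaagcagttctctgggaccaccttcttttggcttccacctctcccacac
The Cd36 window, with 43.0% G and C, held AGGTCA on the reverse strand, at position −228 from the start site. AGGTCA is found in 16.3% of all 32851 promoter windows. The Meox2 window held TATAAA on the reverse strand, at position −29, a motif in 13.6% of windows. No match for the 4 motifs was found in the Fabp3 window, with 65.0% G and C. TAATTA occurs in 5.29% and GTAAACA in 3.65% of windows, and neither was found in these 3. The windows of Slc27a1, Slc27a3 and Slc27a4, not shown, were searched in the same way and held no match for the 4 motifs.

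Most of the genes were lower in the aortic than in the muscle endothelial sort, on the scale of the whole array. Over both strains and diets, 7 of the 10 genes were called lower in aorta and none was called higher (limma, Benjamini-Hochberg adjusted p under 0.05 over 27387 probes), where 46.1% of all probes were called, 30.1% lower and 16% higher. The median of the 10 genes was −0.64 log2 units, against −0.27 over all probes. These differences include the shift of all probes, and except for Fabp5 they were smaller in size than the median of −1.06 of the endothelial markers. The fit took no account of the slides, and with the slide as a random block 5 genes were called.

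Lpl and its carrier showed differences of similar size. Lpl ranged from 3.68 to 6.01 in aorta (median 4.56) and from 5.02 to 6.06 in muscle (median 5.48). The tissues overlapped, but the aorta was lower in 12 of 12 pools of mice, with a fitted difference of −0.92 (SE 0.17, adjusted p = 0.000219). Gpihbp1 ranged from 5.28 to 6.85 in aorta (median 6.01) and from 6.49 to 7.64 in muscle (median 6.88). It was lower in aorta in 11 of 12 pools, by −0.93 (SE 0.16, adjusted p = 0.000159).

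Of the genes for uptake at the membrane, Cd36 and Slc27a3 were called. Cd36 ranged from 4.49 to 6.25 in aorta (median 5.47) and from 5.88 to 6.49 in muscle (median 6.11). It was lower in aorta in 12 of 12 pools, by −0.72 (SE 0.14, adjusted p = 0.000439), and the aortic SD was 0.50 against 0.18 in muscle. Slc27a3, an acyl-CoA synthetase of the transporter family, was lower in aorta in 9 of 12 pools, by −0.54 (SE 0.19, adjusted p = 0.0291). Slc27a1 and Slc27a4 lay within their spread, at 0.06 (SE 0.33, adjusted p = 0.885) and 0.06 (SE 0.22, adjusted p = 0.843). A further Slc27a4 probe, above background on 16 of the 24 arrays, gave 0.48.

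Among the binding proteins, Fabp5 had the largest difference of the 10 genes. Fabp5 ranged from −3.22 to −0.04 in aorta (median −1.59) and from −1.32 to 0.97 in muscle (median −0.04). It was lower in aorta in 11 of 12 pools, by −1.49 (SE 0.34, adjusted p = 0.00154). Fabp4, the adipocyte and capillary binding protein, differed least among the called genes, by −0.36 (SE 0.12, adjusted p = 0.0234), with 6.12 to 7.04 in aorta and 6.55 to 7.31 in muscle. Fabp3, the heart and muscle binding protein, ranged from 0.70 to 3.26 in aorta and from 0.67 to 4.78 in muscle, and its difference of −0.56 (SE 0.40, adjusted p = 0.257) was not called. Without experiment 1 that of Fabp3 was 0.15.

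Meox2 had the smallest adjusted p of the 10 genes in this comparison. It ranged from 3.95 to 4.86 in aorta (median 4.37) and from 4.61 to 5.58 in muscle (median 4.98), was lower in aorta in 12 of 12 pools, and differed by −0.71 (SE 0.12, adjusted p = 8.52e-05). Its group means in muscle were 5.37 in WT chow, 5.05 in WT HFD and 4.86 in both KO groups, above the aortic means of 4.45, 4.39, 4.27 and 4.17 in WT HFD, WT chow, KO chow and KO HFD. Neighbours in this order overlapped in their 3 arrays, except that every KO HFD muscle array lay above every WT HFD aortic array. Another Meox2 probe gave −1.21.

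No gene of the 10 separated the tissues completely, a pattern that 2.06% of probes showed with all aortic arrays lower and 3.45% with all higher. The further probes of Lpl (−1.20) and Fabp4 (−0.38 and −0.91) had the sign of the probes above.

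**Figure D1:**
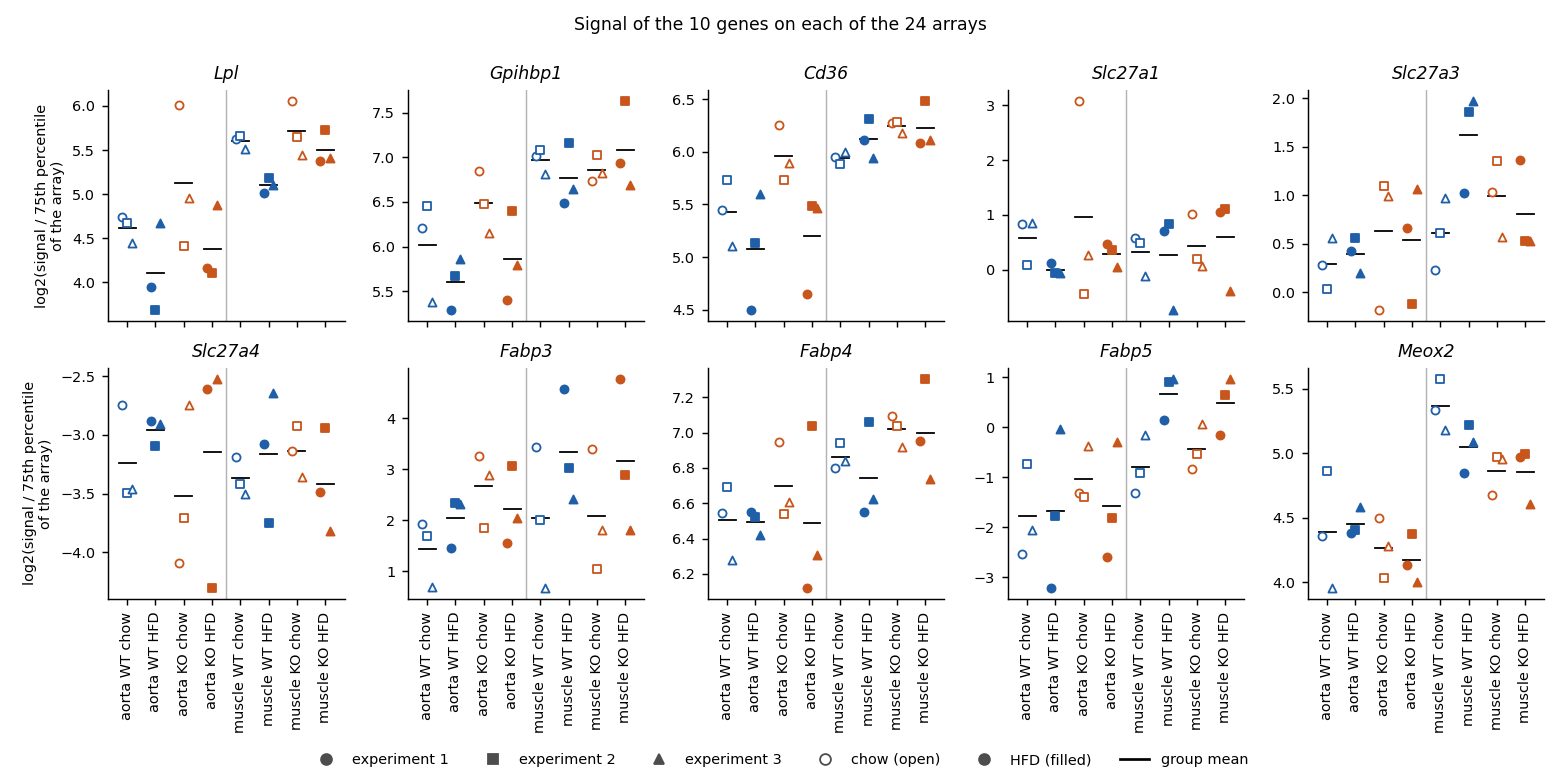
Log2 signal relative to the 75th percentile of the array (y axis) for each gene in the 8 groups of tissue, strain and diet (x axis), with 1 symbol per array, open for chow and filled for HFD, blue for WT and orange for KO, and a line at the group mean of 3 arrays. The muscle arrays of Meox2 and Lpl lie mostly above the aortic ones, while those of Slc27a1 and Slc27a4 overlap throughout, and each panel has its own y axis.

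Some of these calls depended on the setting. Cd36, Fabp5, Gpihbp1, Lpl and Meox2 were called lower in aorta with each experiment left out in turn, under quantile normalization, and with the slide as a random block. Without experiment 1 their differences ran from −1.30 (Fabp5) to −0.63 (Cd36). Fabp4 and Slc27a3 lost their call in each of these settings, Fabp4 with −0.05 under quantile normalization. When each array was instead centred on its 14 endothelial markers, an alternative chosen after the data had been seen, 9 of the 10 genes lay above 0, 7 of them with their sign turned. On that scale 6 were called higher and none lower, where 71.5% of all probes were called higher, Slc27a1 (1.30), Slc27a4 (1.30), Fabp4 (0.88), Slc27a3 (0.70), Meox2 (0.52) and Cd36 (0.52), and Fabp5 alone stayed below 0, at −0.25 (adjusted p = 0.337). The centring subtracts the same amount from every probe of an array, so the turned signs are not particular to these genes. It moved the median of all probes from −0.27 to 0.97, and of the probes called, 3.10% were lower in aorta against 65.4% before. The part that the mix of sorted cells has in the tissue differences was not tested.

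**Figure D2:**
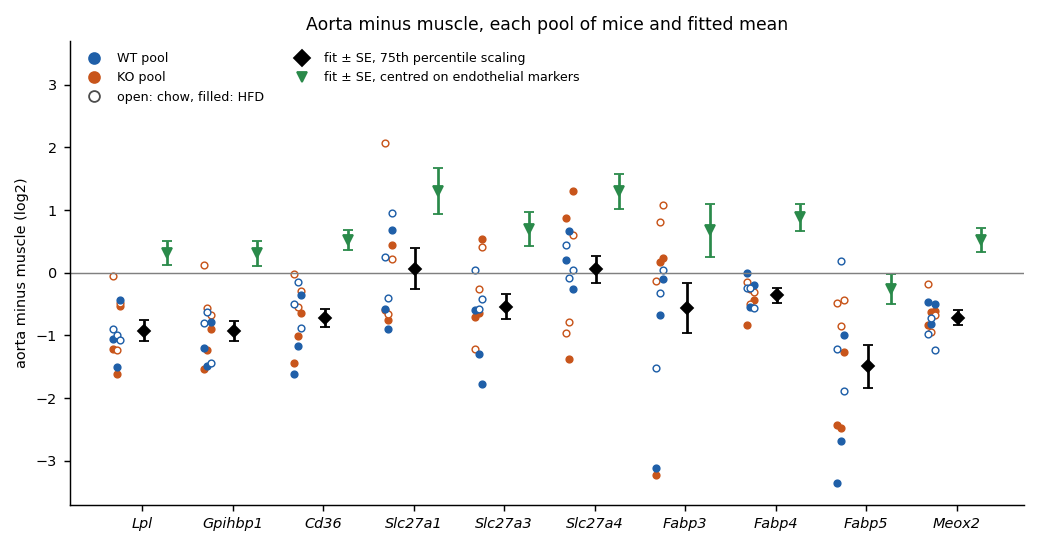
Aorta minus muscle on the log2 scale (y axis) for the 10 genes (x axis), with 1 circle for each of the 12 pools of mice. Black diamonds are the fitted mean ± SE after scaling to the 75th percentile and green triangles the same after centring on the endothelial markers, which puts 9 of 10 genes above 0, against 2 before.

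The tissues were also compared within each group of strain and diet. In WT HFD, 5 genes were called lower in aorta, Cd36 (−1.05, SE 0.28), Fabp5 (−2.35), Gpihbp1 (−1.16), Lpl (−1.001, adjusted p = 0.049988) and Slc27a3 (−1.22), where 8.37% of all probes were called lower. In KO HFD, 4 were, Cd36 (−1.03), Fabp5 (−2.06), Gpihbp1 (−1.22) and Lpl (−1.12), where 8.2% of probes were. In WT chow only Meox2 was called (−0.98, adjusted p = 0.00935), against 7.88% of probes, and in KO chow none, against 1.98%. With the same mice as a replicate block, which the shared mice allow, 3 members were called lower for WT mice on chow, where 13.2% of probes were, and 6 for those on HFD, where 13.3% were. For KO mice 0 were called on chow, where 4.17% of probes were, and 5 on HFD, where 14.3% were. Over both strains and diets the block gave 7 members, against 38.3% of probes. Without that block the counts rested on all 3 experiments: without experiment 1 they were 0 in all groups, without experiment 2 they were 1 (WT chow) and 0 (both HFD groups), and without experiment 3 they were 0 (WT chow), 2 (WT HFD) and 1 (KO HFD). The difference between the groups was tested as the diet response in aorta minus that in muscle, where 0 of 27387 probes were called. The endothelial markers had medians of −1.39 in WT HFD, −1.37 in KO HFD, −1.05 in WT chow and −0.64 in KO chow, in the same comparisons.

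In muscle, HFD was compared with chow within each strain, the question being which of these genes respond to the diet. None of the 10 genes was called in either strain, where 0% of probes were called in WT and 0.00389%, 1 probe, in KO (limma, adjusted p under 0.05 over 25682 probes). At an unadjusted p under 0.05, 3 genes were higher with HFD in WT and 2 in KO, and 12.1% of all probes passed in WT and 8.49% in KO. The methods' one-sample test on the 3 ratios passed 4 genes in WT and 1 in KO before adjustment and 0 after it. A ratio past 1 log2 unit in every experiment, which the methods asked for, was reached upwards by Fabp3 and Fabp5 in WT muscle and by 0 genes in KO muscle, where 0.872% and 0.459% of probes reached it. Downwards no gene reached it, against 0.954% and 0.53% of probes. The count in WT was 1 under quantile normalization.

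Fabp5, the epidermal-type binding protein also found in capillary endothelium and macrophages, had the smallest p of the 10 genes in both strains. In WT muscle it read −1.32, −0.91 and −0.15 on chow and 0.14, 0.91 and 0.95 on HFD in experiments 1, 2 and 3. In KO muscle it read −0.84, −0.54 and 0.07 on chow and −0.15, 0.65 and 0.97 on HFD. The diets did not overlap in WT and overlapped in KO, and within every experiment of both strains HFD was higher. The fit gave a difference of 1.46 for WT (SE 0.23, limma adjusted p = 0.147) and 0.93 in KO (SE 0.23, adjusted p = 0.406). Without experiment 1 these were 1.46 and 1.05. The responses of the strains differed by −0.53 (SE 0.33, adjusted p = 0.999), or −0.42 without experiment 1. The study listed this transcript from the same arrays, so its ratios are no independent evidence.

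Fabp3 had ratios of 1.13, 1.01 and 1.74 in WT muscle and 1.38, 1.84 and −0.01 in KO muscle. Its levels on chow were 3.44, 2.01 and 0.67 in WT and 3.40, 1.04 and 1.82 in KO, and on HFD 4.58, 3.02 and 2.41 in WT and 4.78, 2.89 and 1.81 in KO. The arrays of experiment 1 were the highest of every group, and the diets overlapped in both strains. The fit gave 1.29 for WT (SE 0.38, adjusted p = 0.269) and 1.07 for KO (SE 0.38, adjusted p = 0.544), and without experiment 1 it was 1.37 and 0.92.

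The level of Fabp3 moved with the muscle fibre markers. Over the 12 muscle arrays, as deviations from the group means, Pearson's r with the mean of the 15 fibre markers was 0.94 and Spearman's rho 0.92 (exact permutation within groups, both p = 0.000772, the smallest the permutations can give, and 0.0231 after adjustment over 60 relations). Leaving out the 2 arrays whose marker means were most extreme, r was 0.92, and after the means of the slides were also taken out it was 0.82. With the adipocyte markers r was 0.90 (rho 0.87, exact permutation p = 0.000772 for both, adjusted p = 0.0231), 0.85 without the 2 farthest arrays and 0.55 after the slide means. In muscle this list was led by Aqp7 and Thrsp, which were brighter there than in aorta, whereas Cfd and Cidec were dimmer. Of its 14 markers with a probe, 9 were well above background on every muscle array. The fibre markers were 2.36 to 3.01 on the muscle arrays of experiment 1 and −0.03 to 1.81 on the others. The permutation treated the groups as independent, although they shared slides. A shift of 1 experiment common to the groups can therefore lower its p-values. No p-value was computed after the slide means were taken out. Beside the Fabp3 ratios above, the mean of the fibre markers on HFD minus that on chow was 0.50, −0.45 and −0.11 in experiments 1, 2 and 3 of WT and 0.60, 0.39 and −1.84 in those of KO, and its part in them was not tested. For Fabp5 the same r was −0.78 with the fibre markers (rho −0.71, exact permutation p = 0.0201 and 0.0309, adjusted p = 0.212 and 0.265), −0.62 without the 2 most extreme arrays and −0.05 after the slide means.

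**Figure D3:**
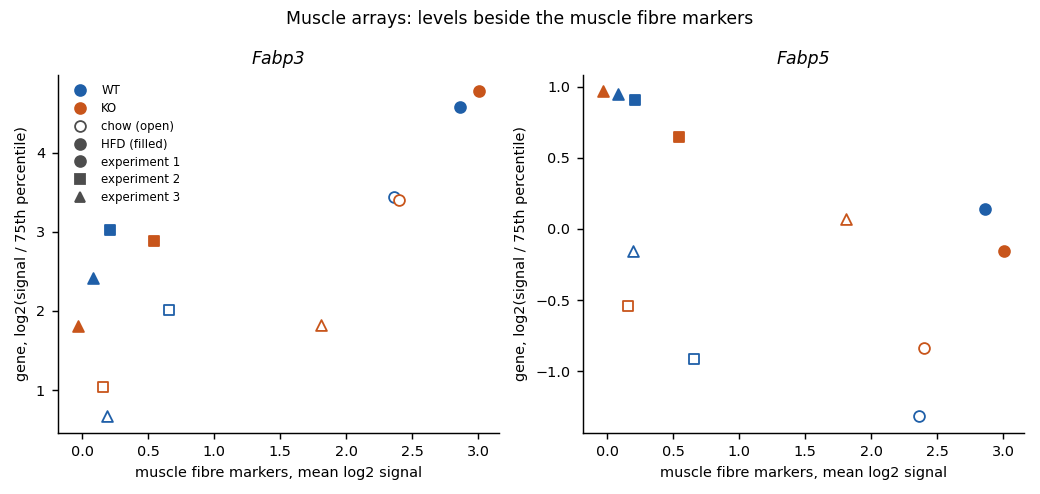
Log2 signal of Fabp3 and Fabp5 (y axes) against the mean log2 signal of the skeletal muscle fibre markers (x axis) on the 12 muscle arrays, open for chow and filled for HFD, with the shape giving the experiment. The Fabp3 arrays of experiment 1 stand at the upper right, from 3.40 to 4.78, and in the Fabp5 panel HFD lies above chow of the same strain and experiment.

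Slc27a3 was above chow in each experiment of WT muscle. In WT muscle it read 0.23, 0.61 and 0.98 on chow and 1.02, 1.85 and 1.97 on HFD, with no overlap and a fitted difference of 1.01 (SE 0.27, adjusted p = 0.247). In KO muscle it read 1.04, 1.35 and 0.58 on chow and 1.37, 0.53 and 0.53 on HFD, a difference of −0.18 (SE 0.27, adjusted p = 0.854). The response in KO minus that in WT was −1.19 (SE 0.39, adjusted p = 0.999) and was not called. Without experiment 1 the differences were 1.12 in WT and −0.44 in KO, and their difference −1.56.

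Lpl was below chow in each experiment of WT muscle, with ratios of −0.62, −0.47 and −0.41. It read 5.63, 5.66 and 5.52 on chow and 5.02, 5.19 and 5.10 on HFD, without overlap, and the fitted difference was −0.50 (SE 0.23, adjusted p = 0.448), or −0.44 without experiment 1. In KO muscle its ratios were −0.69, 0.08 and −0.03. A further Lpl probe, well above background on all 24 arrays, gave mean differences of −1.10 in WT and −0.65 in KO muscle. The size of the Lpl differences thus depended on the probe. Meox2 was also below chow in each WT experiment, with ratios of −0.49, −0.36 and −0.10 and a fitted difference of −0.32 (SE 0.22, adjusted p = 0.622), or −0.23 without experiment 1. In KO muscle the Meox2 ratios were 0.29, 0.03 and −0.34, and none of the KO genes other than Fabp5 (higher) and Slc27a4 (lower, ratios −0.35, −0.02 and −0.46) kept 1 sign in all experiments. Of the WT genes, Fabp5, Slc27a3 and Lpl did not overlap between the diets, where 6.46% of probes were higher and 7.8% lower without overlap.

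Gpihbp1, Cd36, Fabp4 and Slc27a1 gave muscle ratios on both sides of 0 in each strain. Those of Cd36 ranged from −0.05 to 0.43 in WT and from −0.19 to 0.21 in KO. Those of Fabp4 ranged from −0.25 to 0.12 in WT and from −0.18 to 0.27 in KO. The mean of the endothelial markers on HFD minus that on chow was near 0 in muscle, with −0.11, −0.09 and −0.06 in WT and −0.15, −0.07 and −0.01 in KO. The fibroblast list had means higher with HFD in all 6 muscle pairs, by 1.60, 0.36 and 1.49 in WT and by 0.95, 2.18 and 0.41 in KO, and the pericyte list lower in all 6, with −0.41, −1.06 and −0.61 in WT and −0.49, −0.34 and −0.51 in KO. Macrophage markers, though dim, had list means 1.45, 2.00 and 2.53 higher with HFD in WT muscle and 2.77, 2.46 and −2.12 in KO muscle, and the part of these lists in the ratios of Fabp5, Slc27a3 and Lpl was not tested.

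**Figure D4:**
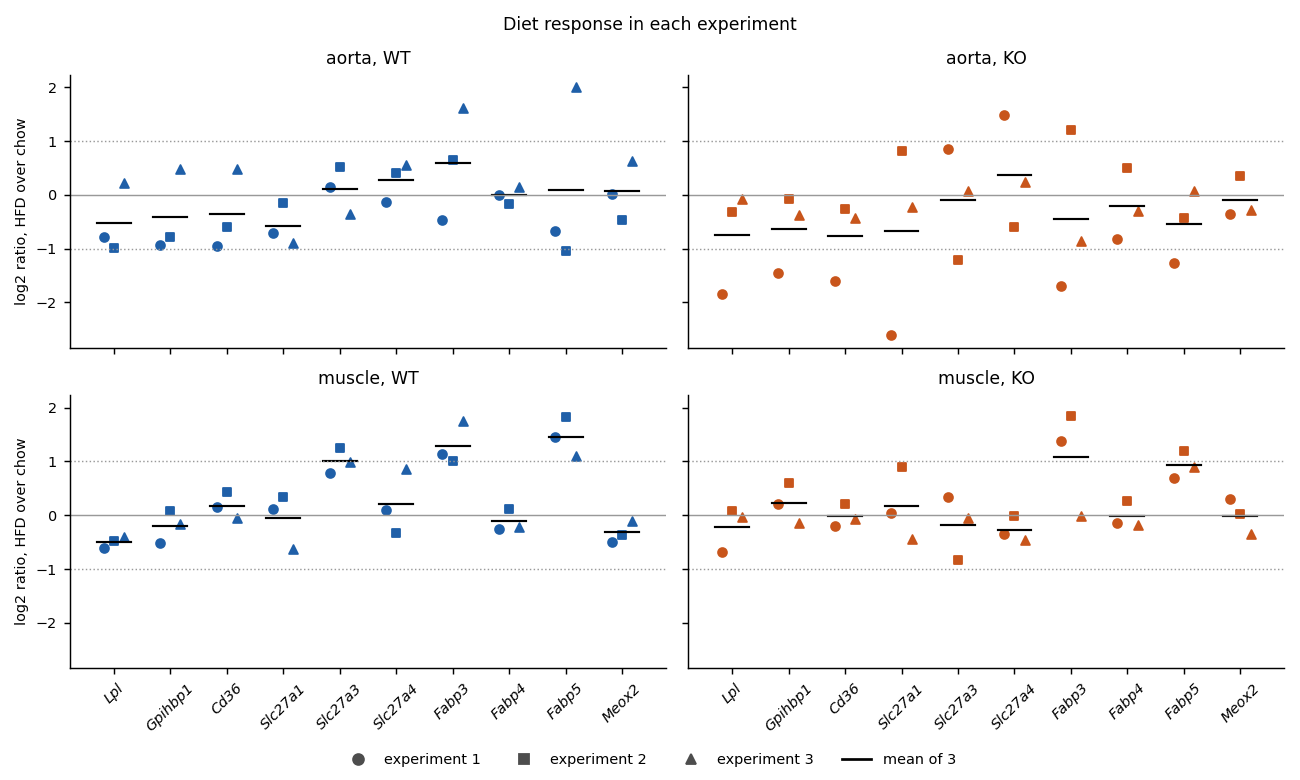
Log2 ratio of HFD to chow (y axis, dotted lines at 1 and −1) for the 10 genes (x axis) in each experiment, for aorta (upper panels) and muscle (lower panels) and for WT (left) and KO (right), with a line at the mean of 3. Fabp3 and Fabp5 of WT muscle lie above 1 in all experiments, and the aortic ratios spread more widely than the muscle ratios of the same gene for Cd36, from −1.61 to 0.49 against −0.19 to 0.43.

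In aorta no gene was called for the diet in either strain, where 0% of 25865 probes were called in each, with 5.77% of probes at an unadjusted p under 0.05 in WT and 11.3% in KO. None of the 10 genes passed even that unadjusted threshold, and none was past 1 log2 unit in all experiments in either direction. Upwards this was reached by 0.735% of all probes in WT and by 1.81% in KO, and downwards by 0.858% and 1.12%. In KO aorta, Cd36 read 6.25, 5.74 and 5.89 on chow and 4.64, 5.48 and 5.46 on HFD, without overlap, which 6.87% of probes showed in that direction. Its fitted difference was −0.76 (SE 0.40, limma adjusted p = 0.509). Lpl had KO ratios of −1.85, −0.31 and −0.07 and Gpihbp1 of −1.45, −0.07 and −0.37. All 3 differences rested on experiment 1: without it the fitted differences were −0.34 for Cd36, −0.19 for Lpl and −0.22 for Gpihbp1.

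In WT aorta the same 3 genes were below chow in experiments 1 and 2 and above it in experiment 3. Cd36 had ratios of −0.96, −0.59 and 0.49, Gpihbp1 of −0.92, −0.79 and 0.48, and Lpl of −0.78, −0.99 and 0.22. Without experiment 1 the fitted differences of Cd36, Gpihbp1 and Lpl were −0.05, −0.15 and −0.38. The further Lpl probe gave mean differences over all experiments of −0.91 in WT and −0.96 in KO aorta. Fabp5 spread further, with ratios of −0.68, −1.05 and 2.01 in WT and −1.26, −0.43 and 0.07 in KO. Slc27a1 was below chow in each WT experiment, with −0.71, −0.14 and −0.90 (fitted −0.58, SE 0.61, adjusted p = 0.966, and −0.52 without experiment 1). Its KO chow array of experiment 1, at 3.08, stood far above the other aortic arrays, which lay between −0.45 and 0.85, and gave a ratio of −2.61. Without experiment 1 the KO difference of Slc27a1 turned from −0.68 to 0.29. That array also had the highest summed signals of the adipocyte markers, 406, and of the brown adipocyte markers, 122. Over the aortic arrays r of Slc27a1 with the adipocyte markers was 0.75 (exact permutation adjusted p = 0.564), and 0.12 without the 2 most extreme arrays. With the fibre markers r was 0.87 (rho 0.85, exact permutation p = 0.0332 and 0.00694, adjusted p = 0.227 and 0.139), and 0.72 without the 2 most extreme arrays. The fibre markers were dim in aorta, with 7 of the 15 well above background on every array.

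The endothelial markers differed between the diets in the same aortic pairs. The list mean on HFD minus that on chow was −0.99, −1.18 and 0.62 in experiments 1, 2 and 3 of WT and −1.61, −1.04 and −0.15 in those of KO. Over the 12 aortic arrays, as deviations from the group means, r with this list, which was added after the data had been seen, was 0.93 for Fabp5 (rho 0.85, exact permutation p = 0.00849 and 0.0116, adjusted p = 0.170 and 0.148) and 0.84 for Cd36 (rho 0.83, exact permutation p = 0.0247 and 0.0162, adjusted p = 0.212 and 0.162), and neither passed the adjusted threshold. Without the 2 most extreme arrays r was 0.85 for Fabp5 and 0.79 for Cd36, and after the slide means were taken out it was 0.96 and 0.82. After centring on the endothelial markers the fitted KO differences were 0.17 for Cd36, 0.31 for Gpihbp1 and 0.19 for Lpl, none called. In the same pairs the mean of the adipocyte list on HFD minus that on chow ran from −2.66 to −2.16 for WT and from −4.01 to −1.79 for KO. That of the brown adipocyte list was −1.60, 0.10 and 1.33 in experiments 1, 2 and 3 of WT and −2.05, 0.87 and −0.70 in those of KO. The part of these lists in the ratios was not tested. Over the 12 arrays r of Cd36 with the adipocyte markers was 0.59 (rho 0.61, exact permutation p = 0.0378 and 0.0764, adjusted p = 0.227 and 0.486) and 0.59 without the 2 most extreme arrays. Fabp4 had aortic ratios between −0.17 and 0.15 in WT and between −0.83 and 0.50 in KO on its brightest probe. A further Fabp4 probe, well above background on all 24 arrays, gave mean differences of −0.72 in WT and −1.10 in KO. Another gave −0.08 and −0.26, so the size depended on the probe.

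**Figure D5:**
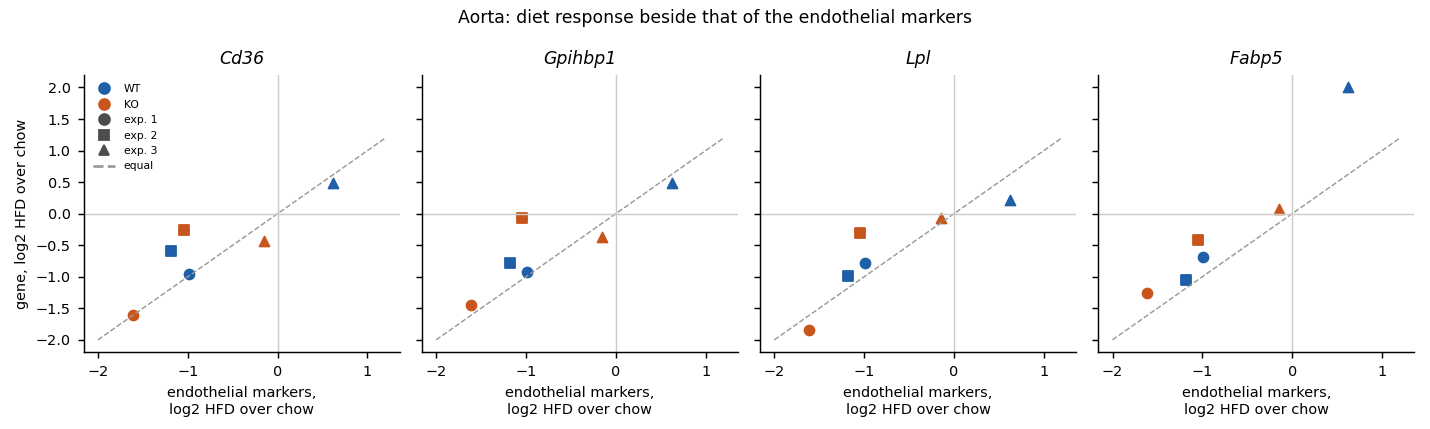
Log2 ratio of HFD to chow for Cd36, Gpihbp1, Lpl and Fabp5 (y axis) against the change of the mean of the 14 endothelial markers (x axis) in the 6 aortic pairs of arrays, blue for WT and orange for KO, with the shape giving the experiment. The dashed line marks equal change, and the KO pair of experiment 1 lies at the lower left in every panel and the WT pair of experiment 3 at the upper right.

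The diet response in aorta was also set against that in muscle. Fabp5 had the largest difference, −1.42 (SE 0.49, limma adjusted p = 0.411 over 27387 probes), or −1.10 without experiment 1. No gene was called, and Fabp5 was the 1 gene with an unadjusted p under 0.05, as 2530 of the 27387 probes had. Nor was any of the 10 genes called for the strain, in aorta or muscle, on chow or HFD, or for the diet response in KO minus that in WT. The background was 0.0116% of probes in aorta on chow, 0.00387% in aorta on HFD and 0% in the other 4. An unadjusted p under 0.05 was given by Fabp3 in aorta on chow, as by 1140 of 25865 probes. Slc27a3 gave one in muscle on HFD, as did 810 of 25682 probes. It also gave one in the difference of the responses in muscle, as did 1059 of 25682 probes. No other gene did. Fabp3 read 1.93, 1.69 and 0.70 in WT and 3.26, 1.85 and 2.89 in KO aorta on chow, a difference of 1.23 (SE 0.52), with overlap. In muscle on chow, Meox2 read 5.34, 5.58 and 5.18 in WT and 4.67, 4.97 and 4.95 in KO, without overlap, a difference of −0.50 (SE 0.23), and 3.45% of probes were lower in KO in this way. Cd36 was higher in KO without overlap in both tissues on chow, as were 4.44% of probes in muscle and 3.42% in aorta. In aorta the gap was narrow, with 5.11 to 5.73 in WT and 5.74 to 6.25 in KO, a difference of 0.53. In muscle it ranged from 5.88 to 6.00 in WT and from 6.18 to 6.28 in KO, a difference of 0.30. The summed endothelial markers in aorta on chow were 257 to 475 in WT and 397 to 584 in KO, and their part was not tested. On HFD, Lpl in muscle read 5.02, 5.19 and 5.10 where the label was WT and 5.37, 5.72 and 5.41 where it was KO, without overlap, as 2.42% of probes did in that direction. Meox2 in aorta on HFD read 4.38, 4.40 and 4.58 under the WT label and 4.14, 4.37 and 4.00 under the KO label, lower without overlap, as were 2.1% of probes. The first value of each of these groups is from an array of doubtful strain, and both separations also stand in experiments 2 and 3.

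The neighbours of these genes in the pathway were read from 4 further lists. Of the lipase partners and other lipases, 15 of 18 were tested, of which 5 were called higher and 4 lower in aorta, with a median difference of 0.01 against −0.27 over all probes. Of all probes, 16% were called higher and 30.1% lower in aorta, which is the background for every list below. The lipoprotein receptors Lrp1 (2.88, SE 0.28) and Vldlr (2.74, SE 0.33) and the lipase inhibitor Angptl8 (above background on 6 of 12 muscle arrays, its size likewise uncertain) were higher. The HDL receptor Scarb1 (−1.62, SE 0.19), the hormone-sensitive lipase Lipe (−1.46, SE 0.29) and the monoglyceride lipase Mgll (−0.70, SE 0.12) were lower. Of the fatty acid activation, binding and storage genes, 19 of 22 were tested (median 0.10), with 4 higher, led by Acsbg1 (4.24), Dgat2 (2.49) and Mfsd2a (1.85, above background on 7 of 12 muscle arrays), and 3 lower, Acsl4 (−0.68), Acsl5 (−0.63, 1 aortic array dropped as an outlier) and Got2 (−0.33). Lipe and Dgat2 are also on the adipocyte list.

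Of 22 transcription factors and signals tied to endothelial fatty acid handling, 13 were lower in aorta and 4 higher, with a median of −0.64, where 30.1% of all probes were lower and 16% higher and the endothelial markers had a median of −1.06. Tcf15, the partner of Meox2, ranged from 2.22 to 4.81 in aorta and from 5.22 to 5.91 in muscle, without overlap, a difference of −1.999 (SE 0.22, adjusted p = 6.52e-07). Apln (−2.02, SE 0.31) and its receptor Aplnr (−1.83, SE 0.28) were also lower, while Ppara (above background on 5 of 12 muscle arrays, so that its size is uncertain), Vegfb (1.37) and Ppargc1a (1.40) were higher. Ppargc1a was above background on 11 of 12 muscle arrays, and its lowest muscle value, −8.49 against a median of −2.81, adds to the size of its difference. Of 14 PPAR-responsive genes, 13 were tested (median 0.08), with Pdk4 (1.14) among those higher and 2 lower, Ucp2 (−2.14) and Cpt1a (−0.46).

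For the diet, no gene of the 4 lists was called, and between 0 and 3 genes of a list passed an unadjusted p under 0.05 in 1 direction. Of all probes, 5.77% passed it in WT aorta, 11.3% in KO aorta, 12.1% in WT muscle and 8.49% in KO muscle, both directions together. Past 1 in all 3 experiments were Aplnr in muscle of both strains, with ratios of 1.69, 1.93 and 1.56 in WT (adjusted p = 0.162) and 2.45, 2.26 and 1.13 in KO (adjusted p = 0.270), and Acsl1, the main acyl-CoA synthetase of adipocytes, in aorta of both strains, with −1.35, −1.47 and −1.16 in WT and −3.30, −1.23 and −1.23 in KO. Dgat2 in KO aorta (−3.20, −1.27 and −2.001), Slc27a2 in KO aorta (−5.02, −6.15 and −2.94, above background on 2 of 3 HFD arrays), Apoc3 in WT aorta (−5.20, −5.15 and −7.36, 2 of 3 HFD arrays) and Ppargc1a in WT muscle (−1.14, −4.90 and −1.20, 2 of 3 HFD arrays) were below −1. Apoc3 in KO muscle was above background on no HFD array and was at least 4.41-fold lower, against the lowest signals well above background. Of all probes, 0.872% were above 1 in all experiments in WT muscle and 0.459% in KO muscle. Below −1 in all experiments were 0.858% in WT aorta, 1.12% in KO aorta, 0.954% in WT muscle and 0.53% in KO muscle.

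By likeness of pattern over the 24 arrays, the genes nearest to Cd36 among 13935 were Tcim, Fli1 and 2810025M15Rik (r 0.96 each), and those nearest to Gpihbp1 were Kank3, Ercc1 and Hspb1 (0.96 to 0.97). Fabp4 was nearest to Atp5j (0.96), Cav1 and Ly6c1 (0.94 each), Fabp5 to Ets1 (0.97), Nras and Gbp4, Lpl to Ppfibp1 (0.95), Rfxap and Synj1, and Meox2 to Med22 (0.94), Zfp131 and Necap2. Slc27a1 was nearest to Pcx (0.90), Hamp2 and Adora1, and Fabp3 to Olfr648 (0.83), Amz1 and Padi1. Slc27a3, with Chmp3 (0.75), Mrgpre and Ifit3b, and Slc27a4, with Dcakd (0.70), had the loosest neighbours. Among the 10 genes, r was 0.91 between Cd36 and Gpihbp1, 0.84 between Cd36 and Lpl and 0.86 between Fabp4 and Gpihbp1. These correlations are descriptions, since the arrays share the tissue difference and the scaling.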

How the data were processed

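RNA of sorted cells was amplified, labelled with Cy3 and hybridised to 1-colour Agilent whole mouse genome arrays. The authors deposited the scanner output, in which the processed intensity of each spot is background-subtracted (Feature Extraction 10.5.1.1 per the file headers, 9.1 per the submitters' processing notes), and a log2 table, which was these processed signals on the log2 scale plus 1 constant per array as deposited and which served as an alternative. Here each array was divided by its 75th percentile (2390 to 5938), spots marked as outliers were left out, spots of 1 probe were averaged and the test took probes well above background throughout at least 1 group, 25865 in aorta, 25682 in muscle and 27387 in both. No spot was saturated. Of 41174 probes, 27198 were named through RefSeq accessions and 1, that of Fabp5, through an accession added by hand. The number of arrays limits the precision.

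limma 3.58.1 in R 4.3.3 (lmFit, eBayes) gave all differences, with Benjamini-Hochberg adjustment over all tested probes and a threshold of 0.05. Diet was fitted within a tissue with a block for each strain and experiment, since the methods form ratios within an experiment, strain on the 4 group means of a tissue, and tissue on the 8 group means of the 24 arrays. The labels give the number as a shared experiment, and deviations from group means correlated between HFD and chow arrays of the same number with a median of 0.23 (7 of 12 pairs over 0.1), between KO and WT with 0.31 (11 of 12) and between aorta and muscle of the same mice with 0.22 (9 of 12). The fits were tested on simulated data. Relations with marker lists used exact permutation within groups (scipy 1.17.1), which takes no account of the slides that the groups share.

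The 10 genes, the gene lists and the tests were chosen with earlier results of these data known. From the 4 pathway lists, the text names for the tissue comparison up to 3 called genes per list and direction by size, and for each diet comparison the genes called or past 1 log2 unit in all 3 experiments, up to 6. From a marker list it names the 2 brightest genes and those not above background in a tissue. For likeness it names the 3 genes with the highest r. Some genes that these rules pick are not reported here. The per-group tissue comparisons share arrays with the comparison over all groups. Alternatives were normexp background correction, quantile normalization, other filters on dim probes, all probes of a gene, outlier spots kept, the deposited log2 table, other blocks, each experiment left out and, added after the data had been seen, centring on the endothelial markers.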

Additional observations from a re-analysis of the deposited data

How the results depend on the processing

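In the comparison of aorta with muscle over both strains and diets, 7 of the 10 genes were called under every alternative with all arrays except quantile normalization and the slide as a random block (5 each) and the centring on endothelial markers (6, all higher in aorta), and 5 were called with any 1 experiment left out. Centring on the endothelial markers turned the tissue difference to 0.52 for Cd36, 0.68 for Fabp3, 0.88 for Fabp4, 0.31 for Gpihbp1, 0.32 for Lpl, 0.70 for Slc27a3 and 0.52 for Meox2, the diet difference in WT aorta to 0.16 for Cd36, 0.11 for Gpihbp1 and 0.00019 for Lpl, and that in KO aorta to 0.17 for Cd36, 0.31 for Gpihbp1, 0.19 for Lpl and 0.26 for Slc27a1. The centring subtracts the markers' own difference from every gene. The count of 1 gene in WT chow became 2 with normexp and with all probes of a gene, 3 with probes above background on every array and 0 after the centring. The count of 5 in WT HFD became 2 under quantile normalization and 3 without a filter, after the centring and with the slide as a random block, and that of 4 in KO HFD became 1, 2 and 1 under the first 3 of these. The cause was not tested.

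With the same mice as a replicate block, 7 genes were called over all groups, 3 and 6 for WT mice on chow and HFD, and 0 and 5 for KO mice on chow and HFD. Without a replicate block, or with the slide as one, 0 were called for diet, strain or their interaction, as under every other alternative. The 2 genes past 1 in WT muscle became 1 under quantile normalization.

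With 1 experiment left out, the counts were 0 to 1 in WT chow, 0 to 2 in WT HFD and 0 to 1 in KO HFD, and 0 to 1 genes were past 1 in all experiments in KO muscle. The tissue difference then ranged from −0.9995 to 0.15 for Fabp3, −0.19 to 0.43 for Slc27a1 and −0.13 to 0.28 for Slc27a4, the diet difference from −1.42 to 0.29 for Slc27a1 in KO aorta and −0.44 to 0.14 for Slc27a3 in KO muscle, and the KO minus WT response of Fabp3 in muscle from −0.75 to 0.54. All 10 probes were well above background throughout, and each diet and strain comparison rests on 3 arrays per group.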
